A study of Mus musculus with 7 samples.

Results

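The retinol storage and transport genes comprised 7 genes, namely Lrat, Rbp4, Ttr, Stra6, Crabp1, Crabp2 and Rarres2, out of 21887 protein-coding genes of the RefSeq annotation of GRCm38.p6. The genes were listed by name for their known roles. The rule used no peak values, but it was set with earlier results of these data known. Each was described by the receptor peaks whose midpoint lay inside the gene span or within 50 kb of it. The data came from chromatin immunoprecipitation followed by sequencing (ChIP-seq) in mouse liver, for 3 nuclear receptors. These were the retinoic acid receptors (RARs) RARα and RARβ and the retinoid X receptor (RXR) RXRα. The mice were wild type C57BL/6 males aged 3 months, fed a normal diet (control) or a diet with retinoic acid (RA). The labels give 1 day of RA feeding, whereas the study's methods describe a longer treatment, so the duration is not settled.

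A peak list was deposited for each of the 6 combinations of receptor and diet. The lists held 245004 peaks together, between 14968 (RARβ, control) and 61128 (RXRα, control) in a list. Each list came from 1 library, and the labels do not state how many livers went into it. Read totals for each receptor and diet are not known. The study gives only a total for RARα, which is the larger, and one for RXRα, neither by diet. Differences between lists therefore have no replicate check, no test was made, and a longer list may come from a deeper library. Whole liver was used, so the cell type behind a peak cannot be told apart. The caller's score, a multiple of the negative log10 of a peak's p-value, was not normalized between libraries. Scores were therefore compared only through the percentile, the percentage of the peaks of the same list with an equal or lower score. A percentile depends on the length of the list, above all for RARβ, whose list was 1.97 times as long under RA. Scores began at about 50 in every list, so a site without a peak is one that did not reach the caller's limit, which does not show that the receptor was absent.

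Liver holds most of the body's vitamin A. Lecithin retinol acyltransferase, encoded by Lrat, esterifies retinol for storage, in the liver mainly in stellate cells. Hepatocytes secrete retinol into blood on retinol binding protein (Rbp4), which circulates bound to transthyretin (Ttr), and Stra6 is a membrane receptor through which some tissues take up retinol from that complex. Inside cells, the cellular retinoic acid binding proteins Crabp1 and Crabp2 carry RA to degrading enzymes and to nuclear receptors, respectively. Rarres2 encodes chemerin, a secreted protein first described as the product of a retinoid-responsive gene. RARs and RXRs are ligand-dependent transcription factors. They can bind DNA as RAR/RXR heterodimers, typically at repeats of the half-site AGGTCA and its variants. RXRs also form homodimers and pair with other nuclear receptors, among them those for fatty acids, bile acids and oxysterols.

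The promoters of Rbp4 and Lrat are shown first, because among the promoter sequences available they were the only ones that lay under a peak. They also differed in the lists that covered them. RXRα peaks lay over those of Rbp4 only, and RARα peaks over both genes under the control diet but over Lrat only under RA. The sequences are the 250 bases before each RefSeq start (GRCm38.p6), written 5′ to 3′ on the strand of the gene. Both genes are on the minus strand. Capitals mark a half-site variant, here the reverse complement of GGGTCA.
Rbp4, outermost start, chr19:38125322-38125571: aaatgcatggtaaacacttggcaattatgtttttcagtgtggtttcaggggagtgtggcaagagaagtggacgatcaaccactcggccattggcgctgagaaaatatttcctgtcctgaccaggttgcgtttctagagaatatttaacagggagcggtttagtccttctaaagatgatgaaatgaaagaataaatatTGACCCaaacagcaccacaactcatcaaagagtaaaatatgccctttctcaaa
Rbp4, inner start, chr19:38124812-38125061: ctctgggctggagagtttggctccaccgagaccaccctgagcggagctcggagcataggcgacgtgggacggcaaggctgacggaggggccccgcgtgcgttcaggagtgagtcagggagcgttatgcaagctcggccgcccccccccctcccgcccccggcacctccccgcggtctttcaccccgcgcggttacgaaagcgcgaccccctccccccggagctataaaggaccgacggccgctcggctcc
Lrat, chr3:82903975-82904224: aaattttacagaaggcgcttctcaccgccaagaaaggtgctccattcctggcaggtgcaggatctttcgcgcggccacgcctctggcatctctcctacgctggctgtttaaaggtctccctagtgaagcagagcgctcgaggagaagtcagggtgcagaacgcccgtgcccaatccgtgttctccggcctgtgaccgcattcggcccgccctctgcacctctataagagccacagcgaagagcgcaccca

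The stretch before the outermost Rbp4 start had a GC content of 40.8%, and that before the inner start, 510 bp into the gene, 70.8%. All 250 bases of both were covered by an RXRα peak under each diet. The RARα control list covered 94 bases of the first and all 250 of the second, whereas the RARα list under RA and both RARβ lists covered 0. The Lrat stretch, with a GC content of 59.2%, showed another arrangement. RARα peaks covered 250 of its bases with control diet and 242 with RA, and no base lay under an RARβ or RXRα peak.

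Promoter windows from 250 bases before to 50 after a start were at hand for 4 of the 7 genes, 8 windows in all: 2 of Rbp4, 4 of Stra6, 1 of Lrat and 1 of Crabp1. They were searched on both strands for the half-site AGGTCA, for its variant AGTTCA, for its variant GGGTCA and for its variant GGTTCA. The half-site AGGTCA itself was in 0 of the 8 windows, against 14.7% of the 21263 promoter windows of that length. Any of the 4 half-sites was in 2 of the 8, against 41.2% of all promoters. These were GGGTCA on the opposite strand, 53 bases before the outermost Rbp4 start, and AGTTCA, 15 bases after 1 of the Stra6 starts. Direct repeats of these half-sites spaced by 0 to 5 bases were in 0 of the 8, against 0.607% of all promoters. A match is a description of letters and not a binding site, and the absence of a match concerns only this window.

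All 7 genes had an RARα peak in the span or within 50 kb under either diet, where 83.0% (control) and 84.2% (RA) of all protein-coding genes had one. RARβ peaks were near 6 of the 7 under the control diet, Ttr being the exception, and near all 7 under RA, against 69.7% and 77.2% of all genes. RXRα peaks were near all 7 under both diets, against 83.1% and 83.7%. With a background this high, a peak within 50 kb sets these genes apart little, so the distance to the start and the rank of the score were examined next.

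Within 10 kb of the outermost start, RARα peaks were called at 4 of the 7 genes on the control diet (61.9% of all genes) and at 3 with RA (63.3%). RARβ peaks were called there at 2 genes (44.1%) and 3 genes (54.7%), and RXRα peaks at 3 genes under each diet (61.3% and 61.7%). These shares lay near or below the background. The genes fell into separate sets. Rbp4, Ttr and Rarres2 had peaks of several receptors within 10 kb of the start, Lrat had RARα peaks only, and Stra6, Crabp1 and Crabp2 had none in any list.

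**Figure D1:**
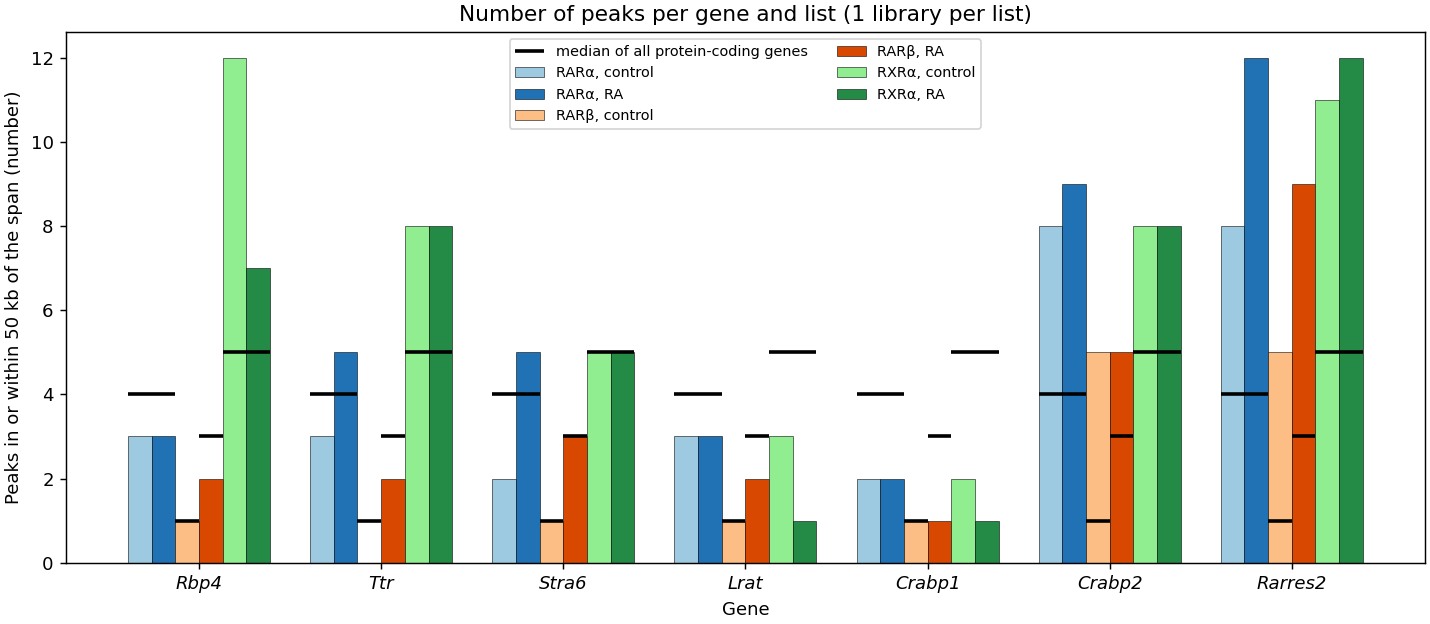
Number of peaks in or within 50 kb of each gene span (vertical axis) for the 7 genes, with 1 bar per receptor and diet; each bar is 1 library and has no error bar, and black lines give the median over all protein-coding genes in the same list. Rarres2 and Crabp2 passed the median in every list, whereas Crabp1 stayed at or below it.

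The number of peaks in that window differed between the genes. Over the 6 lists together, Rarres2 had 57 peaks, Crabp2 43, Rbp4 28, Ttr 26, Stra6 21, Lrat 13 and Crabp1 9. The median over all protein-coding genes was 4 in both RARα lists, 1 and 3 in the RARβ lists and 5 in both RXRα lists. Rarres2 had 12 RARα and 9 RARβ peaks under RA, and 5.3% and 6.15% of all genes had at least as many. Rbp4 stood out in 1 list, with 12 RXRα peaks under the control diet, where 13.6% of genes had at least as many, and 7 under RA.

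Many of these peaks lay closer to the start of another gene. Of the 197 peaks, 64 were nearest to the start of the gene itself and 133 to that of a neighbour, counting protein-coding genes. For Ttr all 26 peaks were nearest to the Ttr start among protein-coding starts, and 17 when genes of all kinds were counted, since the 9 peaks inside Ttr were then nearest to Gm16090. For Crabp1 and Crabp2 the count among protein-coding starts was 0 of 9 and 0 of 43, and for Stra6 4 of 21. For Lrat it was 8 of 13, for Rbp4 11 of 28 and for Rarres2 15 of 57. With genes of all kinds, Stra6 fell to 1 of 21 and the others in this list did not change. For Crabp2 and Rarres2, 6 and 5 other protein-coding genes reached into the window. Within 1 kb of the start of another gene lay 15 of the 43 Crabp2 peaks and 21 of the 57 Rarres2 peaks. Whether the number of neighbours accounts for these peak counts was not tested.

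**Figure D2:**
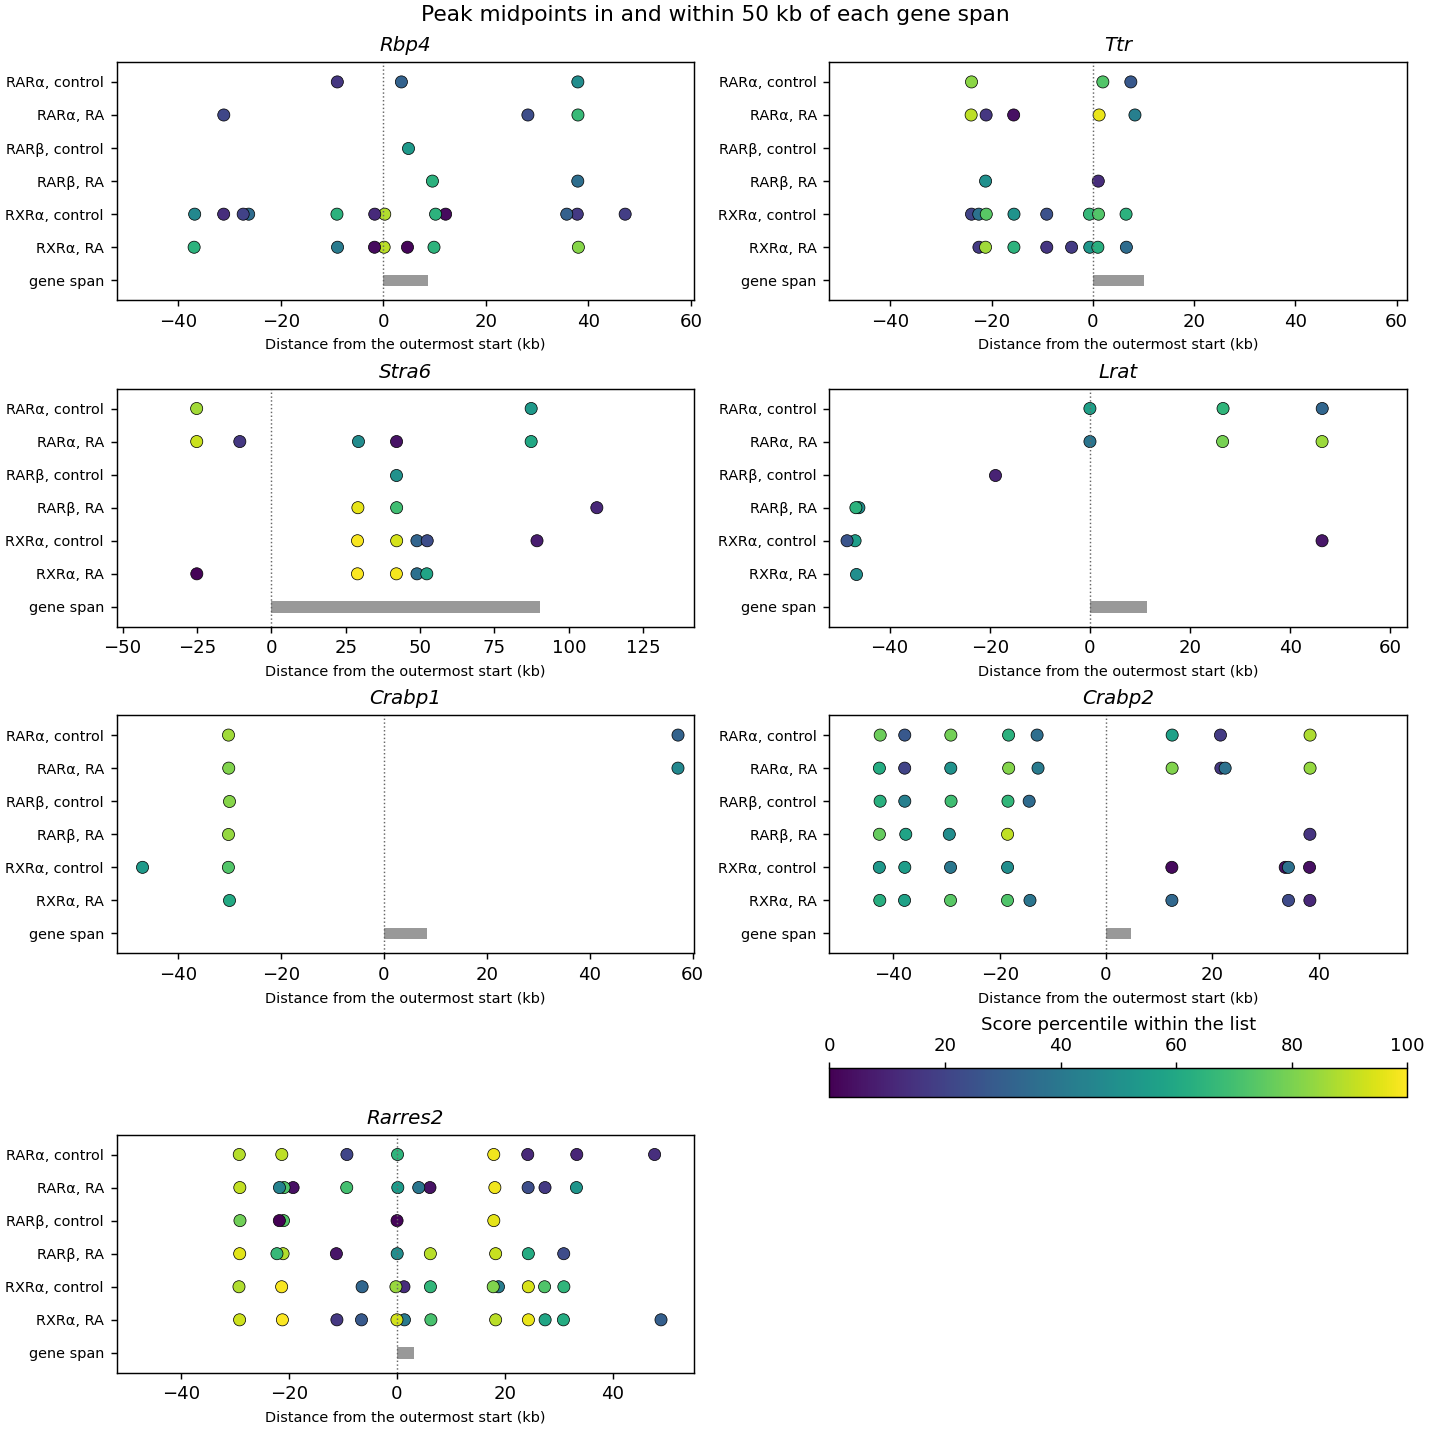
Position of every peak midpoint relative to the outermost start of each gene (horizontal axis, kb, in the direction of transcription), with 1 line per receptor and diet and colour for the score percentile within that list; grey bars are the gene spans. The strongest RXRα peaks at Stra6 lie inside the span, 29.0 kb from the outermost start, and the peaks of Crabp1 and Crabp2 lie outside their genes.

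Lrat, the storage enzyme, spans chr3:82892582-82903974 (GRCm38, minus strand). A peak at its start was called for RARα only, 0.006 kb into the gene under the control diet (score 128.79, percentile 56.6) and 0.016 kb under RA (97.61, percentile 38.7). Both peaks matched each other and were of middling rank. The remaining RARα peaks lay on the 3′ side of the gene. At +46.4 kb the RARα percentile was 32.5 with control diet but 85.1 with RA, and at +26.5 kb it was 65.6 and 79.3. These regions were nearest to the start of Rbm46, at 18.9 and 0.913 kb. RXRα was called at -46.8 kb of Lrat (percentiles 55.8 and 49.1 under control and RA), and RARβ was called at the same region under RA only (percentile 64.1). Under the control diet only, RXRα was also called at -48.5 kb (percentile 25.9) and, with RARα, at +46.4 kb (percentile 6.02). A lone RARβ control peak, at -18.9 kb, was weak (percentile 9.67). No RXRα peak lay within 10 kb of the Lrat start under either diet.

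Rbp4, the plasma carrier of retinol, spans chr19:38116620-38125321 on the minus strand. Its highest-scoring RXRα peaks lay at the promoter shown above, with midpoints 0.304 kb into the gene under the control diet (score 452.01, percentile 88.4) and 0.187 kb under RA (503.67, percentile 89.8). Neither RAR had a peak that matched this region. A weaker RXRα peak was called at -1.67 kb under both diets (percentiles 11.8 and 2.8).

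The RAR peaks at Rbp4 lay elsewhere. Upstream, RARα had weak peaks at -8.94 kb under the control diet (percentile 16.0), in a region also called for RXRα, and at -31.1 kb under RA (percentile 21.3). Under the control diet, a single RARα peak of 7295 bp, chr19:38118121-38125415, ran over most of the gene body and into the promoter (score 78.27, percentile 30.9), and RARα had no peak within 10 kb of the start under RA. RARβ was called at +4.79 kb under the control diet (percentile 53.9) and, under RA, at +9.61 kb just past the 3′ end (percentile 64.0). At the latter region RXRα was called under both diets, with percentiles of 64.3 and 64.7. The most widely shared region was at +38.0 kb, in every list other than RARβ control, and lay 9.72 kb from the start of Ffar4, a fatty acid receptor gene. There the RXRα percentile was 16.5 with control diet but 81.9 with RA, and the RARα percentile 48.5 and 67.2.

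Ttr, the partner of Rbp4 in plasma, spans 20664209 to 20674326 on chromosome 18, plus strand. It was the only member with no RARβ peak under the control diet. A region at +1.13 kb, inside the gene, was called in the other 5 lists. The RARα score there was 193.86 under the control diet (percentile 72.7) and 509.12 under RA (percentile 96.8, rank 1413 of 44296). The RXRα percentile was 72.8 and 63.2, and the RARβ peak under RA was weak (percentile 12.8). The RARα peak was 2304 bp wide under the control diet and 815 bp under RA, so its midpoint moved from +1.98 to +1.25 kb. RXRα was also called close to the Ttr start under both diets. Its midpoint was at -0.659 kb under the control diet (score 217.54, percentile 66.7) and -0.599 kb under RA (153.97, percentile 52.6). The control peak, 403 bp wide, lay inside the RA peak of 1879 bp. It covered too little of the RA peak to count as a match, so each was counted below as unmatched.

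A cluster of peaks lay further upstream of Ttr, where no other start was nearer, of protein-coding or other genes. Within it, RARα ranked highest at -23.9 kb, with percentiles of 82.8 under the control diet and 89.9 under RA. RXRα was highest closer to the gene, at -21.1 kb, with percentiles of 74.2 and 85.7. At this second region RARβ (percentile 49.7) and RARα (percentile 16.0) were called under RA only. Wide RARα peaks of low to middling score, of 5988 and 5219 bp, lay over the 3′ part of Ttr under control and RA (percentiles 27.3 and 42.9).

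Stra6, the retinol uptake receptor, spans chr9:58063793-58154004 on the plus strand in the gene table, but its 4 starts in the promoter table lie 65.3 to 70.9 kb inside that span. No list had a peak within 10 kb of the outermost start or of any of these 4. The region with the highest RXRα scores of the gene was at +29.0 kb, chr9:58091948-58093587. RXRα scored 1067.18 there under the control diet (rank 609, percentile 99.0) and 1328.75 under RA (rank 272, percentile 99.5). RARβ was called at this region under RA only, at score 324.26 (rank 1148, percentile 96.1), as was RARα (118.12, percentile 48.2). Both RAR lists under the control diet had no peak there.

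A second region of the Stra6 span, at +42.1 kb, had a like arrangement. The RXRα percentile was 93.4 under the control diet and 98.3 under RA, the RARβ percentile 50.2 and 69.2, and RARα was called under RA only (percentile 5.05). Both regions were nearest to the start of Ccdc33, which overlaps the Stra6 span, at 26.0 and 12.9 kb, so they cannot be given to Stra6 by position. RARα was strongest elsewhere, at -25.1 kb (percentiles 86.0 and 92.0), where RXRα was called under RA only, near the bottom of its list (percentile 0.899). These RARα peaks lay at -90.4 kb from the nearest Stra6 start of the promoter table. Among genes of all kinds the nearest start was that of Gm16130, so this region cannot be given to Stra6 by position either.

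**Figure D3:**
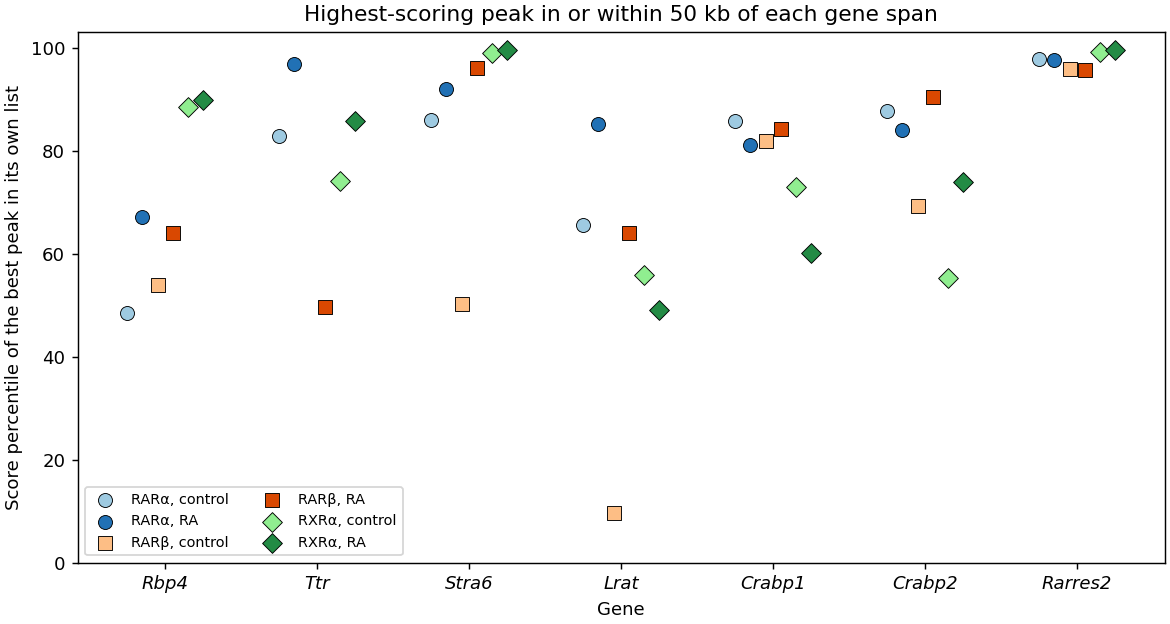
Score percentile within the list (vertical axis, 100 is the top) of the highest-scoring peak in or within 50 kb of each gene, 1 point per receptor and diet and no error bar because each is 1 library; Ttr has no RARβ control point because no peak was called. Rarres2 is above 95 in all 6 lists, whereas Stra6 combines RXRα percentiles of 99.0 and 99.5 with an RARβ control percentile of 50.2.

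Crabp1 (chr9:54764748-54773110, plus strand), a cytosolic binder of RA, had no peak inside the gene or within 10 kb of its start. Its 1 strong region lay at -30.2 kb, 0.032 kb from the start of Wdr61, and was called in all 6 lists. The percentiles there were 85.8 and 81.2 for RARα, 81.8 and 84.3 for RARβ, and 73.0 and 60.2 for RXRα, in each case control first and RA second. The 2 other regions were of 1 receptor each, RXRα at -46.9 kb under the control diet and RARα at +57.2 kb under both diets.

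Crabp2 (chr3:87948693-87953372, plus strand), which delivers RA to RARs, also had no peak inside the gene or within 10 kb of its start. The nearest region was at +12.4 kb, with control and RA percentiles of 56.7 and 80.9 for RARα and of 2.45 and 33.3 for RXRα. Upstream, 4 regions were called in all 6 lists, at -42.6, -37.8, -29.2 and -18.5 kb. The first and last of these lay at the starts of Hdgf (0.042 kb) and Isg20l2 (0.102 kb). At the Isg20l2 start, the percentile was higher under RA than under control for each receptor, 63.8 and 81.5 for RARα, 65.9 and 90.5 for RARβ, and 49.1 and 72.6 for RXRα. The RARα percentile was lower under RA at the other 3 regions, 77.4 and 61.4 at the Hdgf start, 27.0 and 20.1 at -37.8 kb, and 78.8 and 50.4 at -29.2 kb. RARβ was also lower under RA at -29.2 kb (69.2 and 48.5), whereas RXRα was higher under RA at all 4 regions.

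Rarres2 (chr6:48569696-48572845, minus strand), the chemerin gene, was the 1 member whose own start was called in all 6 lists, in the region chr6:48572342-48573711. RXRα scored 385.65 under the control diet (percentile 84.7) and 609.0 under RA (percentile 93.3). The RARα percentiles were 64.9 and 54.3. RARβ scored 50.39 under the control diet (rank 14758 of 14968, percentile 1.41) and 97.01 under RA (rank 15183 of 29467, percentile 48.5). The rank from the top was not higher under RA, in a list 1.97 times as long. The part of list length in the difference between the 2 percentiles was not tested. At +6.2 kb, past the 3′ end and still nearest to the Rarres2 start, RARβ was called under RA only, at percentile 89.1. RXRα was called there under both diets (percentiles 66.0 and 70.9) and RARα under RA only (percentile 4.98).

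The strongest peaks around Rarres2 belonged by position to its neighbours. At the start of Repin1, a zinc finger gene, at -21.4 kb, RXRα reached percentiles of 99.2 and 99.5. At the start of Lrrc61, at +18.1 kb, RARα reached 97.9 and 97.7 and RARβ 95.8 and 91.5. At the start of Zfp775, at -29.2 kb, all 6 percentiles were between 78.5 and 95.6. A further region, at +24.4 kb, was not at a start but 6.29 kb from that of Lrrc61. RXRα reached percentiles of 94.0 and 96.7 there.

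Peaks that overlapped by at least 25% of each width, directly or through a chain of such overlaps, were joined into regions, with the higher score kept where a list had more than 1 peak in a region. This gave 73 regions near the 7 genes. RXRα and at least 1 RAR were called in 31 of them (42.5%), RXRα alone in 24 (32.9%) and RARs alone in 18 (24.7%). The same shares over all 89475 regions of the 6 lists were 42.9%, 36.6% and 20.5%. There were 9 regions called in all 6 lists (12.3%, against 9.43% of all regions) and 22 called in 1 list (30.1%, against 30.0%). Of the 9, the Rarres2 start was the only one nearest to the gene itself, 8 were nearest to the start of another gene, and 6 of these 8 lay within 1 kb of that start. Rbp4, Ttr, Stra6 and Lrat had no region common to all 6 lists.

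**Figure D4:**
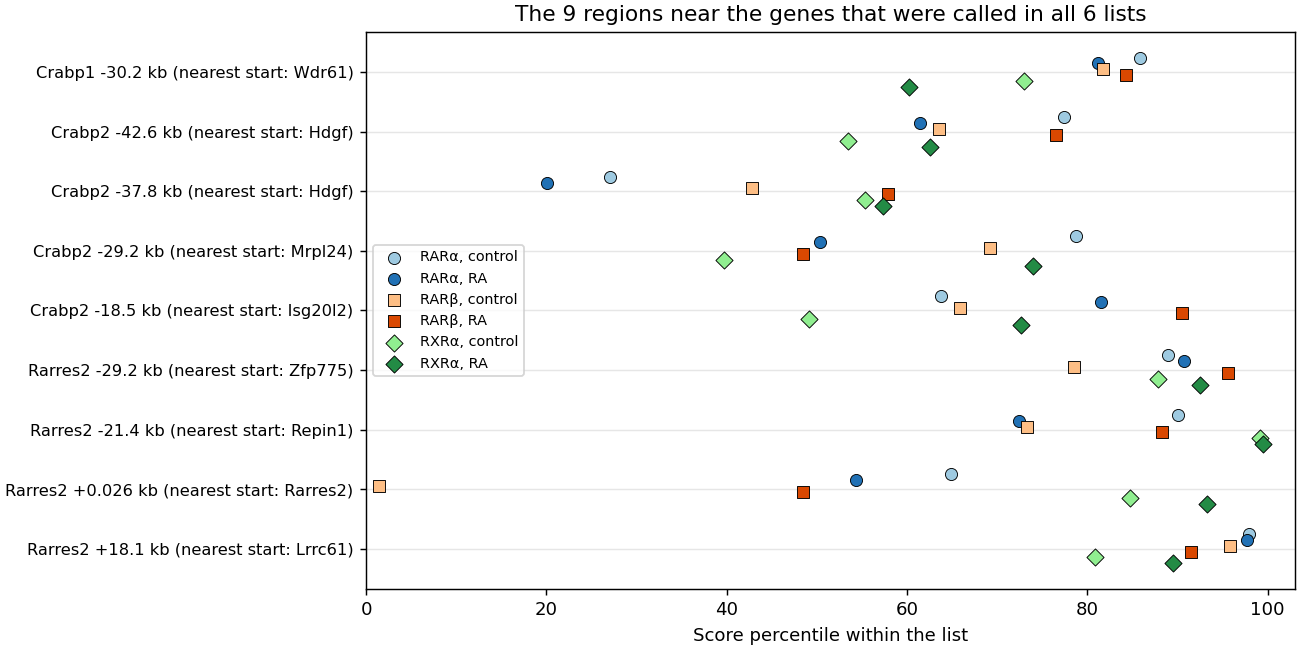
Score percentile within the list (horizontal axis) of the 9 regions called in all 6 lists, 1 line per region named by the gene, its distance from the outermost start and the gene with the nearest start; circles are RARα, squares RARβ and diamonds RXRα, light for control and dark for RA, each from 1 library. The Rarres2 start spans the widest range of percentiles, from 1.41 for RARβ control to 93.3 for RXRα under RA.

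The diets were compared within each receptor. Near the 7 genes, RARα had 29 peaks under control and 39 under RA, a ratio of 1.34 where the whole lists gave 1.25. RARβ had 14 and 24, a ratio of 1.71 against 1.97. RXRα had 49 and 42, a ratio of 0.857 against 0.975. Without replicates, and with whole lists that differed in the same direction for each receptor, these counts do not separate the 7 genes from the rest of the genome.

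Most control peaks had a matching peak under RA. This held for 26 of 29 RARα peaks (89.7%, Wilson 95% interval 73.6 to 96.4), 11 of 14 RARβ peaks (78.6%, 52.4 to 92.4) and 36 of 49 RXRα peaks (73.5%, 59.7 to 83.8). The shares over whole lists were 84.2%, 75.8% and 78.7%, inside each interval. In the other direction, 27 of 39 RARα peaks under RA had a control match (69.2%, 53.6 to 81.4), 11 of 24 RARβ peaks (45.8%, 27.9 to 64.9) and 35 of 42 RXRα peaks (83.3%, 69.4 to 91.7), against 68.4%, 38.2% and 80.3% over whole lists. The intervals cover counting error only, and neighbouring peaks are not independent.

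The peaks under RA without a control match ranked below the matched ones, near the 7 genes as over whole lists. The 12 RARα peaks without a control match had a median percentile of 16.4, against 67.2 for the matched ones, where the whole list gave 23.4 and 64.8. The 7 such RXRα peaks had a median of 17.4 against 62.6, and the whole list gave 18.5 and 59.4. The 13 such RARβ peaks had a median of 49.0 against 76.5, and the whole list gave 37.2 and 71.8. The RARβ list was 1.97 times as long under RA, and the part of list length in these unmatched peaks was not tested. The highest-ranked of the 13 lay at +29.1 kb of Stra6 (rank 1148) and at +6.19 kb of Rarres2 (rank 3216). Those at -46.7 kb of Lrat (rank 10586), +9.61 kb of Rbp4 (10607), +24.4 kb of Rarres2 (11479) and -21.2 kb of Ttr (14836) also ranked within 14968, the length of the control list. RXRα was called under the control diet at each of these named sites. The other unmatched RARβ peaks ranked lower.

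Co-occurrence with RXRα under the same diet was next examined, since RARs bind DNA with RXR partners. Of the RARβ peaks near the 7 genes, 10 of 14 matched an RXRα peak under control (71.4%) and 22 of 24 under RA (91.7%), against 77.8% and 89.9% over whole lists. For RARα it was 17 of 29 (58.6%) and 22 of 39 (56.4%), against 61.1% and 61.7%. RARβ peaks matched an RARα peak in 10 of 14 cases (71.4%) and 18 of 24 (75.0%), against 74.2% and 72.1%. The shares near the 7 genes were thus close to those of the lists they came from.

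Other genes that handle retinoids were set beside the 7 as a list of 15 that was chosen by role. Within 10 kb of a start, RARα peaks were called at 10 of the 15 under control and 9 under RA, RARβ peaks at 8 and 7, and RXRα peaks at 12 and 13. The shares over all genes, given above, were 61.9% and 63.3%, 44.1% and 54.7%, and 61.3% and 61.7%. Dgat1, an acyltransferase that can also esterify retinol, had percentiles of 98.6 and 91.9 for RARα and 96.3 and 98.2 for RARβ under control and RA. Pnpla3, a lipase with retinyl ester activity, had RXRα percentiles of 98.8 and 98.7. No peak of any list lay within 10 kb of the start of Rbp3, the retinoid binding protein of the eye.

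Peaks were also counted near 10 hepatocyte and 10 stellate cell markers. Such counts describe binding and not expression, so they cannot test the labelled tissue. RXRα peaks lay within 10 kb of the start of 10 of 10 hepatocyte markers under each diet, RARα peaks at 7 and 9, and RARβ peaks at 8 and 9. Alb, encoding albumin, had no RARα or RARβ peak there under either diet. Of these hepatocyte numbers, that of RARα under control was near the share over all genes (61.9%), and the others were above their shares, given below. For the stellate cell markers the numbers were 6 and 7 for RXRα, 1 and 2 for RARα, and 0 and 1 for RARβ, and Des, Reln and Lum had no such peak in any list. Against the shares over all genes, the RXRα numbers at stellate cell markers were at the background of 61.3% and 61.7%, and those of the RARs were below 61.9% and 63.3% for RARα and 44.1% and 54.7% for RARβ. Lrat, which stellate cells use, had RARα peaks at its start in whole liver, as given above.

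The genes with the most similar profile of best percentiles over the 6 lists were also listed, 3 for each gene, by the smallest Euclidean distance in percentile points. Those for Rbp4 were Cyp7b1 (10.3), a hydroxylase of oxysterols, Tgif1 (12.0) and Scml4 (12.4). Those for Ttr were Pawr (8.12), Ebp (9.38) and Smyd2 (10.3). All of them also lacked an RARβ control peak, but a missing peak entered the distance as 0, so this likeness was part of the selection. Zmiz1, St3gal5 and A930033H14Rik were closest to Stra6, at 4.2, 4.91 and 5.07. Lrat had less similar ones, Ifit3 (12.7), Zar1l (16.5) and Mdm4 (17.6). Csf3, Gsdma and Gsdma2 were each at 5.49 from Crabp1, and Cybc1, Hexdc and Narf each at 1.56 from Rarres2, because neighbouring genes share a window. The nearest to Crabp2 were Olfr368 and Pdcl, both at 8.66, and Fbxo45 (10.4). The measure rests on 6 libraries and on a window that can hold peaks of several genes.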

How the data were processed

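The authors prepared ChIP-seq libraries from mouse liver, 1 for each of 3 receptors under 2 diets and 1 input library, which was not analysed here on its own. Single-end reads of 35 bp were aligned by the authors with Bowtie to mm10 and peaks were called with MACS, as the study's methods and the labels give it. The deposited score in each peak list is the caller's own value per peak, not normalized between libraries. Read totals by receptor and diet are not given in the sources used here, so depth could not be set beside the values.

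Gene spans came from a RefSeq table of GRCm38.p6. The strand came from RefSeq promoter windows for 17492 protein-coding genes and, by symbol, from GENCODE M1 for another 4044, and genes without one were left out of distances to a start. Ttr, Crabp2 and Rarres2 were among those with a strand from GENCODE M1. The start is the outermost one of the span. Exons and introns were not analysed here. Because 1 library stood for each receptor and diet, counts, ranks and percentiles were given without tests, beside the same values over all protein-coding genes. Peaks matched when the overlap was at least 25% of each width. The code was tested on simulated data and run with Python 3.11.15 and pandas 2.3.3.

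The 7 genes, the other gene lists and the rules for naming were chosen with earlier results of these data known. All 7 genes were named, with the best peak of each list, the regions called in all 6 lists, and the 3 genes of most similar profile. Alternatives were the window, a score minimum of 100, lists of equal length, the overlap rule and the set of starts.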

Additional observations from a re-analysis of the deposited data

Results flagged for a closer look

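The number of peaks near the 7 genes went in opposite directions between receptors under RA. It was 10 higher under RA than under control for RARα, 10 higher for RARβ and -7 for RXRα, that is, fewer under RA. The RXRα direction held with a window of 100 kb, at 89 under control and 81 under RA, and with any overlapping base of the window, at 49 and 42. It did not hold under the remaining settings. With a score of at least 100 the RXRα peaks were 29 under control and 30 under RA, within 10 kb of the start 11 and 14, in lists of equal length 8 and 10, and within 10 kb of the span 19 and 19. The difference between receptors was not tested, because there was 1 library per receptor and diet. The lengths of the whole lists went the same ways, and the part that sequencing depth played was not tested.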

How the results depend on the processing

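Of 102 recomputed counts, 46 stayed within 1.5 times the reported value and 56 did not. Values are given for RARα, RARβ and RXRα in that order, each as control and then RA. With a window of 10 kb around the span in place of 50 kb, the peaks were 9 and 11, 3 and 6, and 19 and 19, and RARβ peaks were near 3 and 4 genes. With 100 kb they were 61 and 74, 30 and 50, and 89 and 81. Within 10 kb of the outermost start, peaks were near 4 and 3, 2 and 3, and 3 and 3 genes, numbering 7 and 7, 2 and 4, and 11 and 14. Counting from any RefSeq start, an alternative chosen after seeing the data, the genes were 4 and 3, 2 and 3, and 3 and 3, and the peaks 7 and 7, 2 and 4, and 12 and 14.

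With a score of at least 100, the peaks were 17 and 24 for RARα and 5 and 14 for RARβ, 29 and 30 for RXRα, and 3 genes had an RARβ control peak. Peaks matched in both diets were then 16 for RARα and 4 for RARβ. With every list limited to its 14968 highest-scoring peaks, RARα had 13 and 14 peaks, RARβ 15 under RA, and RXRα 8 and 10, near 3 and 4 genes, and 10 RARα and 8 RXRα peaks were matched in both diets. The RXRα count was then higher under RA than under control, which is the opposite of the count over whole lists, and the RARβ count differed between diets by 1. With starts of genes of all kinds, 4 RARα control peaks were nearest to the gene's own start, against 7.

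Taking any overlapping base of the window, or overlaps of 1 base or 50%, moved no count by over 1.5 times. Of 18 percentiles of best peaks that could be recomputed within 10 kb of the start, 5 were unchanged and 13 were lower, and 23 had no peak there. Changes of any size are counted here, the smallest being 74.2 against 72.8 for RXRα control at Ttr. No replicate could be left out and no paired analysis was possible because each group had 1 library. Read depth is unknown, so weak peaks near the caller's limit cannot be read as gained or lost.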

Other observations

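The wide RARα peaks over Rbp4 and Ttr, noticed after the values were seen, were followed over whole lists. Peaks of at least 5000 bp numbered 57 of 35521 in the RARα control list and 56 of 44296 under RA, against 4 and 7 for RARβ and 6 and 4 for RXRα. In each RARα list, 46 of them had their midpoint in a protein-coding gene. They fell in 48 genes under control and 46 under RA, with 26 genes in both lists (54.2% and 56.5% of each). Of the shared genes, 16 were major urinary protein (Mup) genes, near-identical copies to which short reads cannot be assigned with certainty. The others included Apoa5, Apoe, Emilin2, Ftl1, Pim3, Ppp1r10, Tdo2, Tmem267 and Ttr.

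Under the control diet these peaks were 7295 bp wide at Rbp4, 8504 bp at Pck1, the gluconeogenic enzyme, 7269 bp at Ass1, an enzyme of the urea cycle, and 6372 bp at Hp, encoding haptoglobin. None of these 4 genes had such a peak under RA. The wide peaks had ordinary scores, with a median percentile of 59.4 under control and 66.0 under RA. Tmem267 had a peak of at least 5000 bp in both RARβ lists and in the RXRα list under RA too, so a wide peak there was not particular to RARα. Of the 10 hepatocyte markers, 0 held the midpoint of a wide RARα peak under control and 1, Apoa2, under RA. What the wide peaks reflect was not tested.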
